A study of Rattus norvegicus with 16 samples.

Results

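The genes described here are Ppargc1a, which encodes the transcriptional coactivator PGC-1 alpha, and 8 genes of fatty acid uptake, transport and oxidation in muscle: Fabp3, Lpl, Cd36, Pdk4, Hadh, Slc25a20, Cpt1b and Ucp3. They were found as the probe sets whose array annotation gives one of these 9 symbols. Of the 31099 probe sets on each array, 14 had a member as their only gene, and 12 of these 14 passed the filter on low values (an intensity above the array's median on at least 4 arrays). All 9 genes are among the 10416 genes tested, and the probe set used for each was above the array median on all 16 arrays. A further Cd36 probe set that the annotation also gives to Cd36l1 was not used.

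Messenger RNA was measured on 16 Affymetrix arrays from 4 rats, numbered 15, 25, 27 and 29, whose strain, sex and age are not given in the sources used here. Each rat gave 4 samples, 1 for each group: EOM_synapse and EOM_fiber, laser-captured neuromuscular junctions and non-junctional fibre of the rectus eye muscles (extraocular muscle, EOM), and TA_synapse and TA_fiber, the same pair of regions from the tibialis anterior (TA), a limb muscle at the front of the lower leg. No treatment, transgene or mutation is given for any group, and all sections were stained for acetylcholinesterase to find the junctions. A sample pools many captured regions of 1 muscle, so an array stands for 1 animal and holds every cell type inside the cut. In such samples fewer cells of a type and less RNA per cell cannot be told apart.

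PGC-1 alpha binds nuclear receptors such as the PPARs and the estrogen-related receptors and raises transcription of genes for mitochondria and fatty acid oxidation. In limb muscle it is known for its high level in oxidative fibres and for its induction by exercise, and in mouse muscle it has been linked to the genes transcribed at the junction. Fatty acids reach the mitochondria in a chain of steps: release from lipoproteins by lipoprotein lipase, passage through the membrane, binding in the cytosol, coupling to carnitine and import, and then beta oxidation, while pyruvate dehydrogenase kinases hold back the use of carbohydrate.

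RefSeq promoter windows (assembly GRCr8, 250 bases upstream of the gene's start) were available for 7 of the 9 members. The windows printed are those of the 3 members in which a searched motif was found, among them Ppargc1a and Slc25a20, which differed between the junctions of the muscles past the threshold. Capitals mark the motif, and each window reads 5′ to 3′ on the gene's strand, which is the plus strand for all 3. They lie at chr14:63634058-63634307 (Ppargc1a), chr8:118243323-118243572 (Slc25a20) and chr1:164227660-164227909 (Ucp3).
Ppargc1a: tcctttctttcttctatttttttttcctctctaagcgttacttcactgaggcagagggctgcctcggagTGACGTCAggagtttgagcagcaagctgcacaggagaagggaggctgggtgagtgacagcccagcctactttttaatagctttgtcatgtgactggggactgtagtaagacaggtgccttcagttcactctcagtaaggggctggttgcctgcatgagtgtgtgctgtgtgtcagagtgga
Slc25a20: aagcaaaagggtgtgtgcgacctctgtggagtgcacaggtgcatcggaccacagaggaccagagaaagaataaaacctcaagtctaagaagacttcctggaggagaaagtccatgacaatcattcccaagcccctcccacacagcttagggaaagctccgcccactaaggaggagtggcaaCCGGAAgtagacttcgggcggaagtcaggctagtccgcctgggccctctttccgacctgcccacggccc
Ucp3: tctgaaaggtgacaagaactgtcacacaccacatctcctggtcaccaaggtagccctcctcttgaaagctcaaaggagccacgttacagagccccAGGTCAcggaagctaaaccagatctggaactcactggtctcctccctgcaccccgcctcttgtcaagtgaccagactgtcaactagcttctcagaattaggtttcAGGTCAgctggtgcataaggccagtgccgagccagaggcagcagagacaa

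Both strands were searched for 5 motifs chosen with these data known. The cAMP response element TGACGTCA, the site of the factor CREB, begins 181 bases upstream of the Ppargc1a start and was present in 1.70% of 27457 rat promoter windows of the same length. The Ets-factor site CCGGAA, called the N-box in junction genes, begins 69 bases upstream of the Slc25a20 start (13.4% of windows). The nuclear receptor core site AGGTCA (13.7% of windows) occurs in the Ucp3 window at 155 and at 50 bases upstream. The estrogen-related receptor element TCAAGGTCA (0.368% of windows) and the direct repeat DR1, the core site repeated after 1 base (0.0546%), both of which contain the core site, matched no member's window. A match describes the letters only.

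The deposited values had been scaled to a 2% trimmed mean of 150.06 to 150.08 on every array, and their median intensity ran from 33.43 to 57.04. The arrays with the highest medians were EOM_fiber 15, TA_synapse 27 and TA_fiber 25. Marker genes bore out the labels: 7 of 8 tested junction markers were higher at the junction in each muscle, with the adult acetylcholine receptor subunit Chrne higher by 6.36 in EOM and 6.03 in TA (log2), and the extraocular myosin Myh13 was higher by 8.98 and 8.58 in EOM junctions and fibre than in the same regions of TA. Levels below are quantile-normalized log2(intensity + 16), given in the order of rats 15, 25, 27 and 29. Differences are log2 differences ± SE from limma fitted to all 16 arrays with the rat as a block. P-values are adjusted over all genes tested by the Benjamini-Hochberg method, and under 0.05 counts as past the threshold. The pseudocount of 16 pulls the differences of dim probe sets toward 0. Probe sets respond differently, so levels are compared between groups and not between genes, and the number of arrays limits the precision.

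The members did not share 1 pattern over the 4 groups. At the junction, Ppargc1a, Lpl and Slc25a20 were higher in EOM than in TA, while Pdk4 was lower. Within a muscle, every difference between junction and fibre that passed the threshold was toward less RNA at the junction: 5 of 9 members in EOM and 6 of 9 in TA. Of 23 alternative settings, 6 kept the Cd36 call at each junction and 6 the Cpt1b call at the EOM junction. The other junction calls were kept in 14 to 23. With each array centred on its median, 1 member was called at the EOM junction. Away from the junction, EOM fibre had more Slc25a20 and less Hadh and Pdk4 than TA fibre. The Pdk4 calls between the muscles also depended on the settings. Of the 23 alternatives, 6 kept the call at the junction and 4 the call in the fibre, where Hadh kept its call in 23 and Slc25a20 in 17. The 23 leave a single other probe set aside. With the other probe set the Hadh and Pdk4 fibre calls were lost (adjusted p = 0.0836 and 0.736, limma).

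In EOM_synapse against TA_synapse, 3 members passed the threshold as higher and 1 as lower, where 7.82% of all tested genes passed as higher, 8.61% as lower and 16.4% in either direction. The members' median difference was 0.29, against 0.01 over all genes. In EOM_fiber against TA_fiber, 1 was higher and 2 were lower where 8.4% and 7.15% of all genes were (15.6% in either direction), with medians of 0.19 for the members and 0.03 for all genes. In EOM_synapse against EOM_fiber, 5 members were lower and none higher, where 4.51% of all genes were lower, 5.62% higher and 10.1% passed in either direction, with medians of -0.80 and -0.04. In TA_synapse against TA_fiber, 6 were lower and none higher, where 3.53% of all genes were lower, 6.7% higher and 10.2% passed in either direction, with medians of -0.95 and -0.01. The comparisons share arrays in pairs, so their counts are not independent of each other.

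Leaving out 1 array at a time gave 3 or 4 members past the threshold between the junctions of the muscles, 1 to 3 between the fibres (1 without TA_fiber 15), 1 to 4 at the EOM junction and 4 to 6 at the TA junction. The EOM junction count was 1 without EOM_synapse 15 or EOM_synapse 29, 2 without EOM_fiber 15 or EOM_synapse 27, and 3 without EOM_fiber 25, EOM_fiber 27 or EOM_synapse 25. With each array centred on its median in place of quantile normalization it was also 1, and the share of all called genes that were higher at the EOM junction was 79.4%, against 55.5% with quantile normalization.

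Counted by values that did not overlap, 3 members were higher in EOM_synapse than in TA_synapse (11% of all genes were), and 2 were higher and 1 lower in EOM_fiber than in TA_fiber (8.39% and 7.98% of all genes). At the EOM junction 3 members lay below the fibre without overlap (8.92% of all genes), and at the TA junction 5 did (5.61%).

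**Figure D1:**
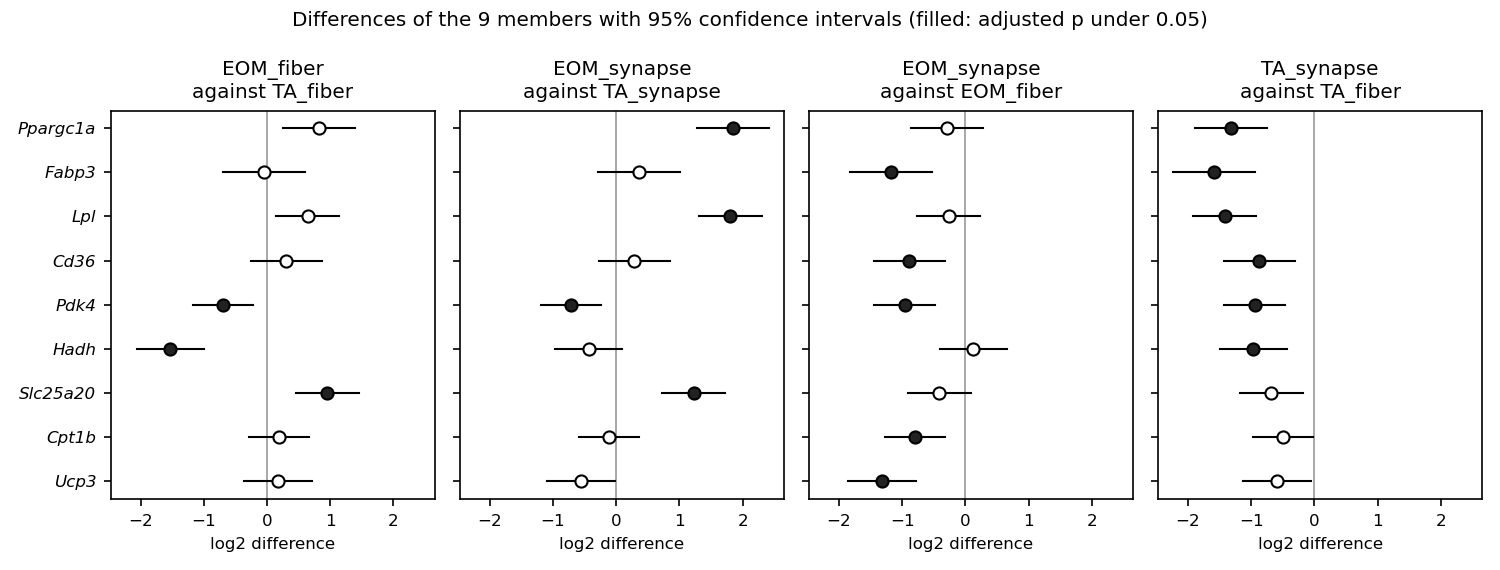
Log2 difference of each of the 9 members (horizontal axis) with its 95% confidence interval in the 4 comparisons of 2 groups, filled where the adjusted p of limma is under 0.05. Ppargc1a, Lpl and Slc25a20 stand at 1.85, 1.80 and 1.22 in EOM_synapse against TA_synapse, and all 9 points lie below 0 in TA_synapse against TA_fiber.

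The interval plot shows the sign of each member in each comparison. In TA all 9 members had a negative difference at the junction, and in EOM 8 of 9 did, the exception being Hadh at 0.13. Of all tested genes, 35.1% had a negative difference in both muscles. Fabp3, Cd36 and Pdk4 passed the threshold as lower at both junctions, as did 1.21% of all tested genes.

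Ppargc1a, the coactivator, had levels of 10.51, 10.40, 9.97 and 9.98 in EOM_synapse, 10.94, 10.22, 10.51 and 10.35 in EOM_fiber, 8.13, 8.14, 9.09 and 8.10 in TA_synapse and 9.23, 9.59, 10.15 and 9.76 in TA_fiber. TA_synapse stood apart at the bottom: none of its arrays reached the lowest array of any other group, and rat 27 lay above the other 3 rats there. EOM_synapse was 3.60-fold higher than TA_synapse (1.85 ± 0.26, adjusted p = 0.000356, limma, 4 of 4 rats). TA_synapse was 2.49-fold lower than TA_fiber (-1.32 ± 0.26, adjusted p = 0.00571, 4 of 4 rats).

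In EOM the junction and the fibre overlapped for Ppargc1a, with a difference of -0.29 ± 0.26 (95% interval -0.86 to 0.28, adjusted p = 0.543, limma). EOM_fiber lay above TA_fiber on every array, by 0.82 ± 0.26, a difference that missed the threshold (adjusted p = 0.0509, limma). It passed with the rat as a random block (0.039), a pseudocount of 64 (0.0133) or a filter of 8 arrays (0.0393). It also passed with the mean of its probe sets (0.0347) or without rat 27 (0.0483). The difference missed the threshold without any 1 of its 8 arrays (adjusted p = 0.0604 to 0.174, limma). With 1 rat left out it missed in 3 of 4 fits (adjusted p up to 0.2585). Of 11 other alternatives, 7 also missed the threshold (adjusted p up to 0.187). The order of the group means was EOM_fiber (10.50 ± 0.32), EOM_synapse (10.21 ± 0.28), TA_fiber (9.68 ± 0.39) and TA_synapse (8.37 ± 0.48) (SD, n = 4 each). Of the neighbours in that order, the first pair did not differ beyond the spread, EOM_synapse and TA_fiber overlapped and were not compared, and the last pair differed. Whether the junction difference itself differed between the muscles was tested by the interaction, in which Ppargc1a had 1.03 ± 0.37 (adjusted p = 0.3, 4 of 4 rats).

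A second Ppargc1a probe set, 1395518_at, also passed the threshold for both calls: 1.45 ± 0.24 in EOM_synapse against TA_synapse (adjusted p = 0.00118, limma) and -0.83 ± 0.24 in TA_synapse against TA_fiber (adjusted p = 0.0456). The remaining one, 1370089_at, was above the array median on 1 of 16 arrays and missed the threshold for both, at 0.90 ± 0.35 and -1.14 ± 0.35 (adjusted p = 0.0977 and 0.0549). In EOM_fiber against TA_fiber it had the opposite sign, at -0.25 ± 0.35. The TA call on 1393743_at, the probe set used, also missed the threshold when all arrays of rat 29 were left out (adjusted p = 0.0675).

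**Figure D2:**
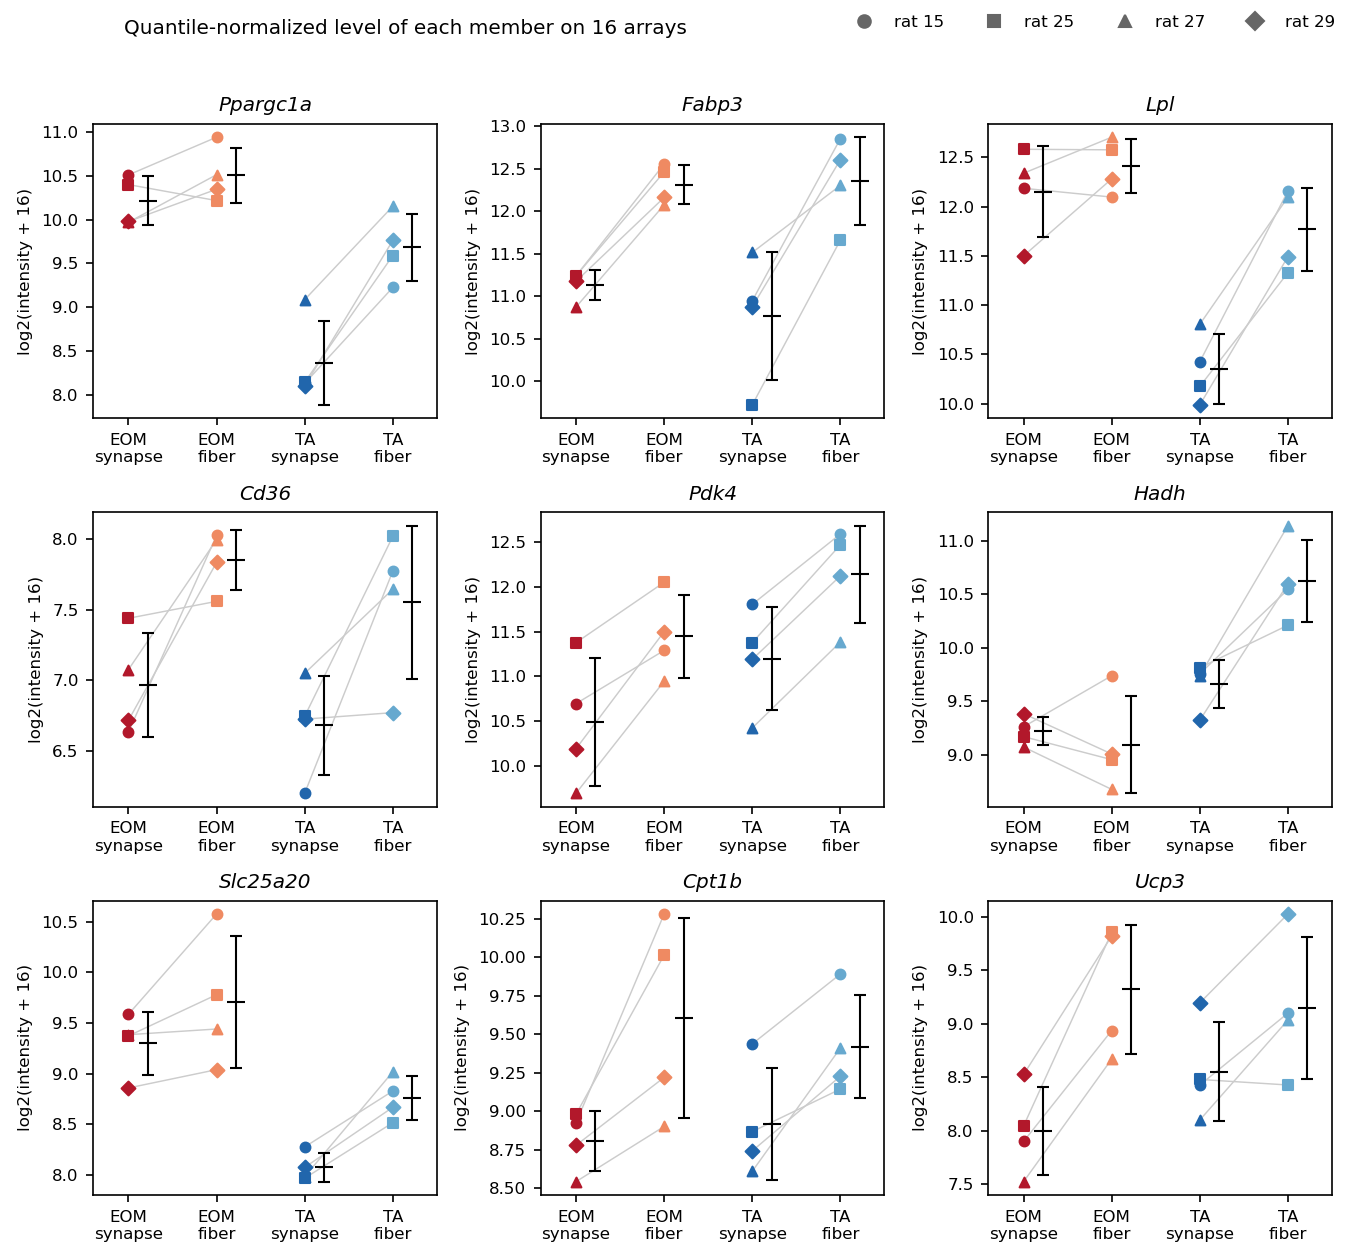
Quantile-normalized log2(intensity + 16) of each member (vertical axis, scaled per gene) on the 16 arrays, by group from left to right, with a symbol per rat, grey lines joining the junction and the fibre of the same rat, and the group mean with its SD (n = 4). For Ppargc1a and Lpl every TA_synapse array lies below all arrays of the other groups. Slc25a20 is lower in each TA group than in the same region of EOM. For Hadh every TA_fiber array lies above all others.

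The plot of levels by group shows the uptake genes next to the coactivator. Lpl, the secreted lipase that frees fatty acids from circulating lipoproteins at the capillary wall, had levels of 12.19, 12.58, 12.34 and 11.50 in EOM_synapse, 12.10, 12.58, 12.70 and 12.28 in EOM_fiber, 10.43, 10.17, 10.81 and 9.99 in TA_synapse and 12.16, 11.33, 12.10 and 11.49 in TA_fiber. As for Ppargc1a, every TA_synapse array lay below every array of the other groups. EOM_synapse was 3.49-fold higher than TA_synapse (1.80 ± 0.23, adjusted p = 0.000143, limma), and TA_synapse was 2.68-fold lower than TA_fiber (-1.42 ± 0.23, adjusted p = 0.00123), each in 4 of 4 rats. In EOM the junction and the fibre overlapped, at -0.26 ± 0.23 (2 of 4 rats lower, 95% interval -0.76 to 0.23).

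EOM_fiber and TA_fiber differed in Lpl by 0.65 ± 0.23 (3 of 4 rats higher, adjusted p = 0.075, limma), and passed the threshold without EOM_fiber 15 (adjusted p = 0.0408). The interaction of Lpl was 1.16 ± 0.33 in 4 of 4 rats (adjusted p = 0.139) and passed the threshold with a pseudocount of 64 (adjusted p = 0.0373). The endothelial partner that holds Lpl at the capillary, Gpihbp1, named here after its values were seen, had differences of -0.82 ± 0.49 in EOM_synapse against TA_synapse and -0.43 ± 0.49 in TA_synapse against TA_fiber (adjusted p = 0.286 and 0.661).

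Cd36, the membrane protein that takes up long-chain fatty acids, had levels of 6.63, 7.44, 7.08 and 6.72 in EOM_synapse, 8.03, 7.56, 8.0 and 7.84 in EOM_fiber, 6.20, 6.75, 7.05 and 6.73 in TA_synapse and 7.78, 8.02, 7.65 and 6.77 in TA_fiber. The EOM groups did not overlap, while in TA rat 29 was as low in the fibre as at the junction. The junction difference was -0.89 ± 0.26 in EOM and -0.87 ± 0.26 in TA (adjusted p = 0.0454 and 0.0486, limma, 4 of 4 rats each), and the muscles did not differ past the threshold in either region. Both junction calls were near the threshold: each missed it without any 1 of 7 of its 8 arrays (all but EOM_fiber 25, adjusted p = 0.0538 to 0.145, and all but TA_fiber 29, 0.0516 to 0.17), and without the rat as a block (adjusted p = 0.0556 and 0.0581).

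Fabp3, the fatty acid binding protein of the cytosol in heart and skeletal muscle, had levels of 11.24, 11.24, 10.87 and 11.18 in EOM_synapse, 12.55, 12.46, 12.07 and 12.16 in EOM_fiber, 10.95, 9.73, 11.51 and 10.88 in TA_synapse and 12.85, 11.66, 12.30 and 12.60 in TA_fiber. Junction and fibre did not overlap in either muscle, and the low arrays were TA_synapse 25 and, in the fibre, TA_fiber 25. EOM_synapse was 2.27-fold lower than EOM_fiber (-1.18 ± 0.30, adjusted p = 0.0244, limma) and TA_synapse 3.01-fold lower than TA_fiber (-1.59 ± 0.30, adjusted p = 0.00395), with 4 of 4 rats in each muscle. The EOM call missed the threshold without 1 of EOM_fiber 15, EOM_fiber 25, EOM_synapse 15, EOM_synapse 27 or EOM_synapse 29 (adjusted p = 0.06 to 0.09), and the TA call without all arrays of rat 15 (adjusted p = 0.0532). Between the muscles Fabp3 differed by 0.37 ± 0.30 at the junction and -0.04 ± 0.30 in the fibre, with intervals of -0.28 to 1.02 and -0.69 to 0.61.

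Markers of other cells, of muscle fibre and of the junction also differed in these comparisons, not all in the same direction. Their sums are of intensities as deposited, before quantile normalization. The 11 endothelial markers with a probe set, none of them at 0, summed to 1573 to 2491 intensity units in EOM_synapse and 3093 to 3651 in EOM_fiber, and to 1111 to 2017 in TA_synapse and 1895 to 2762 in TA_fiber. Of these 11, 5 were lower at the EOM junction and 3 at the TA junction. In EOM_fiber against TA_fiber 2 of 11 were higher (median difference 0.39) and the sums did not overlap, and in EOM_synapse against TA_synapse none passed the threshold in limma, with 2 at an unadjusted p under 0.05 (median 0.35). Leaving out 1 array brought the EOM junction count to 1 to 3 (EOM_fiber 25, EOM_fiber 29, EOM_synapse 15, EOM_synapse 25 or EOM_synapse 29), the TA junction count to 0 or 1 (TA_fiber 25, TA_fiber 29 or TA_synapse 25) and the fibre count to 0 or 1 (EOM_fiber 15, EOM_fiber 25, TA_fiber 15, TA_fiber 25 or TA_fiber 27). The 11 muscle fibre markers summed to 112100 to 155200 in EOM_synapse and 199400 to 330600 in EOM_fiber, and to 188100 to 289800 in TA_synapse and 229100 to 431300 in TA_fiber, with 2 of 11 lower at the EOM junction and 1 of 11 at the TA junction. Between the muscles, 1 of these 11 was higher and 3 were lower in EOM_synapse than in TA_synapse (median -0.32), and 1 was higher and 1 lower in EOM_fiber than in TA_fiber (median -0.02), with Myh13 the higher one in both. The fibre calls numbered 1 without EOM_fiber 15, TA_fiber 15 or TA_fiber 27, the EOM junction calls 1 without EOM_fiber 25 or EOM_synapse 15, and the TA junction calls 0 to 2 without TA_fiber 15, TA_fiber 27, TA_fiber 29 or TA_synapse 29. The Schwann cell sum ran the other way, at 7307 to 12040 in EOM_synapse and 1686 to 2576 in EOM_fiber, and 4514 to 6530 in TA_synapse and 368 to 676 in TA_fiber, with 6 of 6 tested markers higher at each junction, 2 of 6 higher in EOM_synapse than in TA_synapse and 3 of 6 higher in EOM_fiber than in TA_fiber. Of 8 junction markers, none passed the threshold between EOM_synapse and TA_synapse in limma, with 2 at an unadjusted p under 0.05, and 4 were higher in EOM_fiber than in TA_fiber, Chrna1 by 3.52.

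Fibroblast markers summed to 11650 to 22790 in EOM_synapse and 3250 to 16610 in EOM_fiber, and to 7755 to 19040 in TA_synapse and 1282 to 6350 in TA_fiber, and 4 of 7 were higher at the EOM junction (2 without EOM_synapse 25) and 6 of 7 at the TA junction. Of the same 7, 1 was higher in EOM_synapse than in TA_synapse (median 0.41) and 6 were higher in EOM_fiber than in TA_fiber (median 1.31). Adipocyte markers, 7 with a probe set and none at 0, summed to 388 to 456 in EOM_synapse and 370 to 932 in EOM_fiber, against 93.1 to 230 in TA_synapse and 183 to 234 in TA_fiber. Of these 7, 2 were below the array median on every array. Only Cidea of the 4 tested adipocyte markers differed past the threshold between the muscles, by 2.80 at the junction and 3.13 in the fibre. Macrophage markers summed to 478 to 874 in EOM_synapse and 917 to 1880 in EOM_fiber, and to 423 to 594 in TA_synapse and 310 to 539 in TA_fiber, and 4 of 7 tested were higher in EOM_fiber than in TA_fiber. The log2 ratio of 3′ over 5′ Gapdh probe sets, a measure of RNA integrity and amplification, overlapped between all groups (3.06 to 3.62 in EOM_synapse, 3.42 to 3.89 in EOM_fiber, 2.97 to 4.25 in TA_synapse and 3.39 to 3.95 in TA_fiber). Within rats, however, the Gapdh ratio was lower in EOM_synapse than in EOM_fiber in 4 of 4 rats. At the TA junction and between the muscles its sign varied with the rat. The same ratio for actin ran from 2.40 to 4.75 in EOM_synapse, 3.06 to 3.59 in EOM_fiber, 3.71 to 4.52 in TA_synapse and 3.36 to 4.80 in TA_fiber. It was lower in EOM_fiber than in TA_fiber in 4 of 4 rats, with ranges that overlapped, and the junction groups overlapped. The part of these cells and of RNA quality in the members' differences was not tested.

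Slc25a20, the carrier that brings acylcarnitines through the inner mitochondrial membrane, had levels of 9.59, 9.37, 9.39 and 8.86 in EOM_synapse, 10.58, 9.78, 9.44 and 9.04 in EOM_fiber, 8.28, 7.97, 7.98 and 8.08 in TA_synapse and 8.83, 8.52, 9.02 and 8.67 in TA_fiber. The lowest EOM array lay above the highest TA array of the same region in both regions. EOM_synapse was 2.34-fold higher than TA_synapse (1.22 ± 0.23, adjusted p = 0.00274, limma) and EOM_fiber 1.93-fold higher than TA_fiber (0.95 ± 0.23, adjusted p = 0.0136), with 4 of 4 rats in each region. Without TA_fiber 15 the fibre call missed the threshold (adjusted p = 0.0559), as it did with each array centred on the median (0.0844). The same call was lost with only the arrays compared (0.12) and without the 3 arrays of highest median (0.12). Leaving out rat 15 (0.108) or rat 25 (0.0931) also lost it. At the junctions Slc25a20 was lower in 4 of 4 rats in each muscle, but the differences of -0.41 ± 0.23 in EOM and -0.68 ± 0.23 in TA missed the threshold (adjusted p = 0.301 and 0.0839).

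Cpt1b, the muscle enzyme that couples fatty acids to carnitine at the outer mitochondrial membrane, had levels of 8.93, 8.98, 8.54 and 8.78 in EOM_synapse, 10.28, 10.01, 8.90 and 9.22 in EOM_fiber, 9.44, 8.87, 8.61 and 8.74 in TA_synapse and 9.89, 9.14, 9.41 and 9.23 in TA_fiber. Each pair of groups compared overlapped, and the spread was widest in EOM_fiber, where rats 15 and 25 were high. EOM_synapse was lower than EOM_fiber (-0.80 ± 0.22, adjusted p = 0.0358, limma, 4 of 4 rats), a call lost without any 1 of the 8 arrays but EOM_fiber 27 and EOM_fiber 29 (adjusted p = 0.0616 to 0.131) and without the rat as a block (0.106) or with it as a random block (0.0701). TA_synapse and TA_fiber differed by -0.50 ± 0.22 (adjusted p = 0.185), and between the muscles the differences were -0.11 ± 0.22 at the junction and 0.19 ± 0.22 in the fibre.

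Hadh, the mitochondrial dehydrogenase that oxidises short-chain 3-hydroxyacyl-CoA, had levels of 9.26, 9.17, 9.07 and 9.38 in EOM_synapse, 9.74, 8.95, 8.68 and 9.01 in EOM_fiber, 9.76, 9.81, 9.74 and 9.32 in TA_synapse and 10.54, 10.21, 11.14 and 10.60 in TA_fiber. Every TA_fiber array was above every array of the other 3 groups. EOM_fiber was 2.89-fold lower than TA_fiber (-1.53 ± 0.25, adjusted p = 0.000976, limma, 4 of 4 rats), and TA_synapse was 1.95-fold lower than TA_fiber (-0.97 ± 0.25, adjusted p = 0.0229, 4 of 4 rats). The TA call was lost without 1 of TA_fiber 27, TA_fiber 29, TA_synapse 15 or TA_synapse 29 (adjusted p = 0.0625 to 0.0937).

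EOM_synapse and EOM_fiber differed in Hadh by 0.13 ± 0.25 (95% interval -0.40 to 0.66), and EOM_synapse and TA_synapse by -0.44 ± 0.25 (adjusted p = 0.258, limma). The interaction was 1.09 ± 0.35 in 4 of 4 rats (adjusted p = 0.212). A second probe set, 1389922_at, above the array median on 3 of 16 arrays, gave -1.07 ± 0.40 in EOM_fiber against TA_fiber and -0.12 ± 0.40 in TA_synapse against TA_fiber (adjusted p = 0.0836 and 0.901), so neither call was shared by both probe sets.

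Pdk4, the kinase that inactivates pyruvate dehydrogenase and so limits carbohydrate oxidation, had levels of 10.69, 11.38, 9.69 and 10.19 in EOM_synapse, 11.29, 12.05, 10.94 and 11.50 in EOM_fiber, 11.81, 11.38, 10.42 and 11.19 in TA_synapse and 12.59, 12.47, 11.38 and 12.12 in TA_fiber. Levels differed between rats as well as groups, with rat 27 lowest in all 4 groups, and every pair of groups compared overlapped. The junction was lower than the fibre in both muscles, with differences of -0.96 ± 0.22 in EOM and -0.95 ± 0.22 in TA (adjusted p = 0.0146 and 0.015, limma, 4 of 4 rats each), and the interaction was -0.01 ± 0.31. EOM was lower than TA in both regions, with -0.71 ± 0.22 at the junction, in 3 of 4 rats with equal levels in rat 25, and -0.70 ± 0.22 in the fibre in 4 of 4 rats (adjusted p = 0.0435 and 0.0492).

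The Pdk4 calls held with the rat as a fixed block only, and on 1 of the 2 probe sets. Without the block the adjusted p was 0.136 and 0.146 for the junctions of EOM and TA, and 0.235 and 0.251 for EOM against TA at the junction and in the fibre (limma). With the rat as a random block it was 0.0838 and 0.0905 for the junctions of EOM and TA, and 0.168 and 0.182 between the muscles. The fibre call was lost without any 1 of its 8 arrays (adjusted p = 0.0602 to 0.14), and the call between the junctions of the muscles without any 1 array of rats 15, 27 and 29 (0.0742 to 0.145). The EOM junction call was lost without 1 of EOM_fiber 27, EOM_synapse 15 or EOM_synapse 29 (0.0508 to 0.0631), and the TA junction call without TA_fiber 15 or TA_synapse 25 (0.0533 to 0.0653). A second probe set, 1369150_at, above the array median on 7 of 16 arrays, passed the threshold in no comparison and had the opposite sign in EOM_fiber against TA_fiber, at 0.30 ± 0.50 (adjusted p = 0.736).

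Ucp3, a carrier of the inner mitochondrial membrane found mainly in skeletal muscle, had levels of 7.90, 8.05, 7.52 and 8.53 in EOM_synapse, 8.94, 9.85, 8.67 and 9.82 in EOM_fiber, 8.43, 8.48, 8.10 and 9.20 in TA_synapse and 9.10, 8.43, 9.04 and 10.03 in TA_fiber. EOM_synapse held the lowest array of each rat, and EOM junction and fibre did not overlap. EOM_synapse was 2.50-fold lower than EOM_fiber (-1.32 ± 0.25, adjusted p = 0.00447, limma, 4 of 4 rats), a call that missed the threshold with each array centred on the median (adjusted p = 0.0734). A second probe set, 1387681_at, which was above the median on all 16 arrays, passed it as well, at -0.82 ± 0.19 (adjusted p = 0.017).

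In TA the junction difference of Ucp3 was -0.60 ± 0.25 (3 of 4 rats lower, adjusted p = 0.163, limma), and it passed the threshold without TA_fiber 25 (0.0174). EOM and TA differed by -0.55 ± 0.25 at the junction (4 of 4 rats lower, adjusted p = 0.153) and by 0.17 ± 0.25 in the fibre (adjusted p = 0.692). The interaction was -0.73 ± 0.35 in 4 of 4 rats (adjusted p = 0.487).

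**Figure D3:**
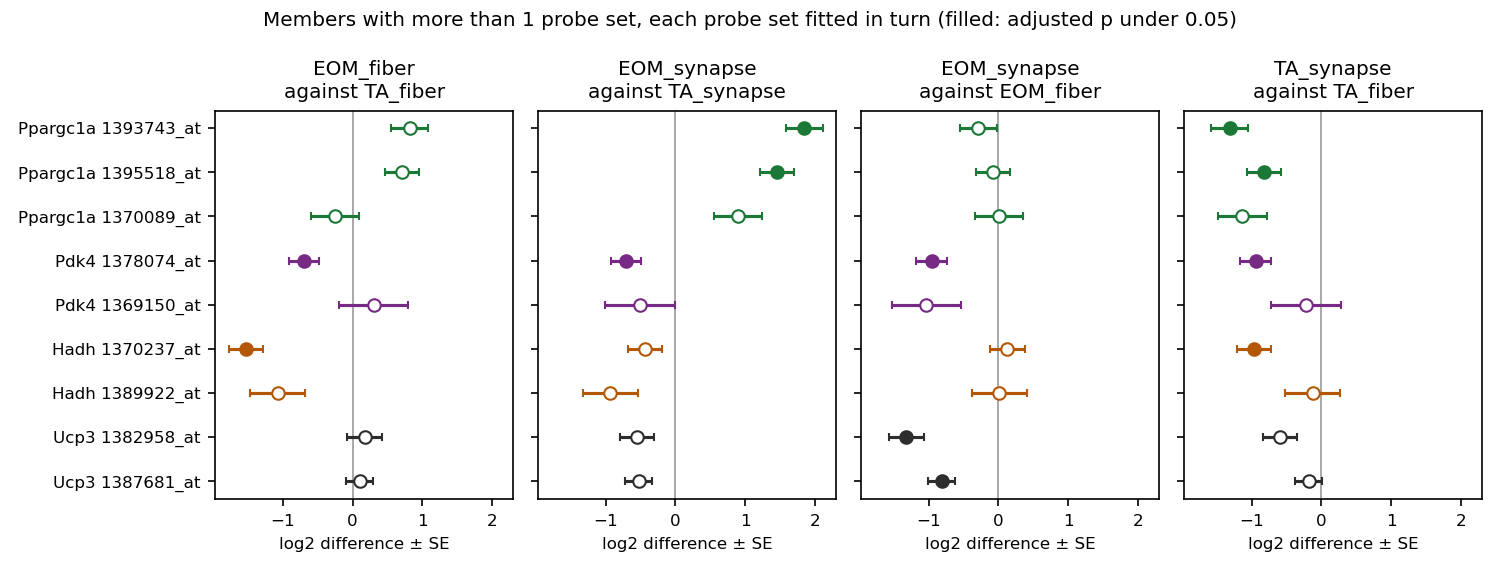
Log2 difference ± SE (horizontal axis) of every probe set of the 4 members with more than 1, in the 4 comparisons of 2 groups, filled where the adjusted p of limma is under 0.05. The 2 brighter Ppargc1a probe sets are filled for EOM_synapse against TA_synapse and for TA_synapse against TA_fiber, both Ucp3 probe sets for EOM_synapse against EOM_fiber, while 1369150_at of Pdk4 and 1389922_at of Hadh have no call.

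The plot of single probe sets covers the 4 members with more than 1 probe set. From high to low, the group means ran EOM_fiber, EOM_synapse, TA_fiber and TA_synapse for Ppargc1a, Lpl and Slc25a20. For Cpt1b and Ucp3 they ran EOM_fiber, TA_fiber, TA_synapse and EOM_synapse, so that the 2 carnitine shuttle members Slc25a20 and Cpt1b had different orders. The order was TA_fiber, EOM_fiber, EOM_synapse and TA_synapse for Fabp3, EOM_fiber, TA_fiber, EOM_synapse and TA_synapse for Cd36, TA_fiber, EOM_fiber, TA_synapse and EOM_synapse for Pdk4, and TA_fiber, TA_synapse, EOM_synapse and EOM_fiber for Hadh.

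Few neighbours in these orders differed past the threshold. TA_synapse and TA_fiber did for Ppargc1a and Lpl, and also for Hadh, where they are the top pair. EOM_synapse and EOM_fiber did for Fabp3, and EOM and TA did in each region for Pdk4. No neighbours that were compared did for Slc25a20, Cd36, Cpt1b or Ucp3, and a junction was not compared with the fibre of the other muscle.

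In the interaction no member passed the threshold, where 0.922% of all tested genes did, and 3 members had an unadjusted p under 0.05 (Ppargc1a, Lpl and Hadh, each positive). For the other members the 95% intervals of the interaction included -1.48 to 0.03 for Ucp3 and -0.51 to 1.33 for Fabp3. An interval that holds 0 does not show that the junction difference was the same in both muscles.

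Members differed in which other members they followed across the 16 arrays, which share 4 rats and fall into 4 groups, so that the values describe these arrays and are not tested. Pearson's r with Ppargc1a was 0.89 for Lpl and 0.87 for Slc25a20, and Lpl and Slc25a20 had an r of 0.81. For Cd36 and Fabp3 it was 0.59 and 0.56, for Cpt1b and Ucp3 0.27 and 0.06, and for Pdk4 and Hadh -0.16 and -0.22. After these 3 pairs, the closest were Fabp3 and Cpt1b (0.67), Pdk4 and Cpt1b (0.64), Fabp3 and Cd36 (0.63) and Lpl and Cd36 (0.62).

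**Figure D4:**
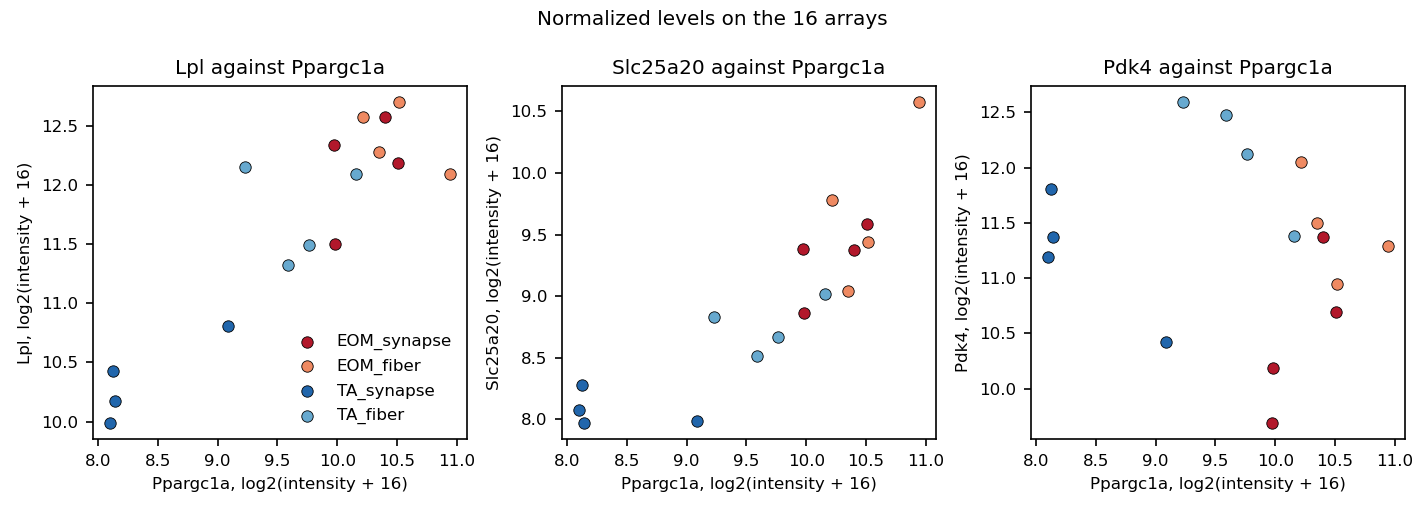
Level of Lpl, Slc25a20 and Pdk4 (vertical axes) against the level of Ppargc1a (horizontal axis), both quantile-normalized log2(intensity + 16), on the 16 arrays coloured by group. In the plots of Lpl and Slc25a20 the TA_synapse arrays sit at the lower left, and Pdk4 shows no such order (r = -0.16).

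In the scatter plots the 4 TA_synapse arrays had the lowest Ppargc1a. Among all other tested genes, those most like Ppargc1a over the 16 arrays were Prom1 (r = 0.94), LOC100912310 (0.93), Ky (0.92), Sh3kbp1 (0.91) and Itgb1bp2 (0.91). Those most like Pdk4 were Ciao2a (0.93), Gcsh (0.89), Entrep3 (0.88), Babam1 (0.87) and Dis3l (0.87).

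Around the members, 93 other genes of fatty acid and pyruvate metabolism and its regulators were listed in 5 lists, and 85 were tested. In EOM_synapse against TA_synapse 14 were higher and 7 lower (24.7%, against 16.4% of all genes), with a median difference of 0.08. In EOM_fiber against TA_fiber 4 were higher and 8 lower (14.1%, against 15.6%), with a median of -0.01. In EOM_synapse against EOM_fiber 3 were higher and 11 lower (16.5%, against 10.1%), with a median of -0.31. In TA_synapse against TA_fiber 4 were higher and 21 lower (29.4%, against 10.2%), with a median of -0.45, against -0.01 over all genes. Leaving out 1 array lowered these counts by more than 1.5 times in 3 of the comparisons. The fibre total was 6 or 7 without 1 of EOM_fiber 27, EOM_fiber 29, TA_fiber 25, TA_fiber 27 or TA_fiber 29, the EOM junction total was 8 or 9 without EOM_synapse 29 or EOM_synapse 15, and the TA junction total was 12 to 16 without 1 of TA_fiber 15, TA_fiber 27, TA_fiber 29, TA_synapse 15 or TA_synapse 25.

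**Figure D5:**
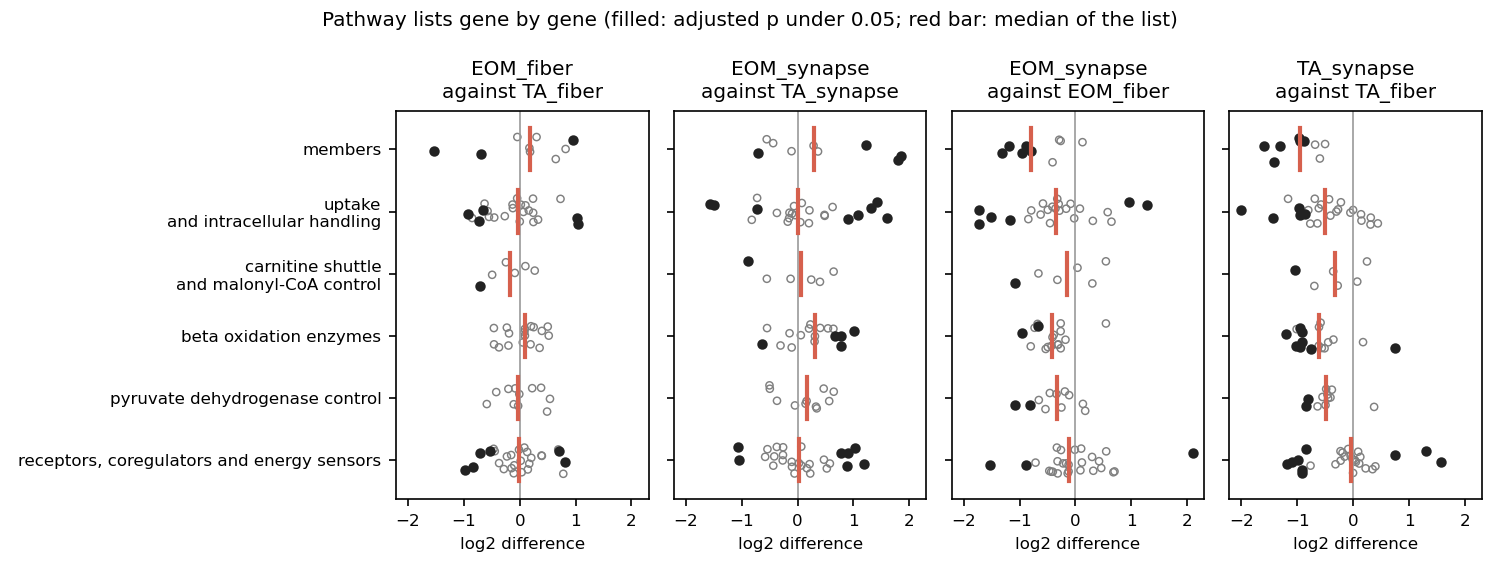
Log2 difference of each gene (horizontal axis, 1 point a gene, spread vertically for sight) for the 9 members and the 5 pathway lists in the 4 comparisons of 2 groups, filled where the adjusted p of limma is under 0.05, with a red bar at each list's median. At the TA junction the beta oxidation enzymes lie mostly left of 0, with a median of -0.62, and the receptors and coregulators lie around it, at -0.05.

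The plot of pathway lists shows beta oxidation enzymes and lipid handling genes to the left at both junctions. Of 17 tested beta oxidation enzymes, 2 were lower and none higher at the EOM junction (median -0.41), and 7 were lower and 1 higher at the TA junction (median -0.62). The enoyl-CoA isomerase Eci2 and the dienoyl-CoA reductase Decr1 were lower at the TA junction, at -1.20 ± 0.17 and -0.94 ± 0.21 (adjusted p = 0.000364 and 0.0115, limma). Hadhb, the beta subunit of the mitochondrial trifunctional protein, was higher there by 0.75 ± 0.17 (adjusted p = 0.013, and 0.0503 without TA_synapse 29), while the alpha subunit Hadha had -0.51 ± 0.18 (adjusted p = 0.0846). Eci2 was also lower at the EOM junction, at -0.67 (adjusted p = 0.0223, limma). That call was lost without EOM_fiber 25, EOM_synapse 25 or EOM_synapse 29.

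Between the junctions of the muscles, 4 of these 17 enzymes were higher in EOM and 1 lower (median 0.31), and in the fibre none passed the threshold in limma, with 2 at an unadjusted p under 0.05 (median 0.09). The enoyl-CoA hydratase Echs1 stood at 10.05 ± 0.11 in EOM_synapse and 9.05 ± 0.18 in TA_synapse (SD, n = 4 each), a difference of 1.0 ± 0.21 (adjusted p = 0.00563). Eci2 and Hadha were higher in EOM_synapse by 0.78 ± 0.17 and 0.77 ± 0.18 (adjusted p = 0.00577 and 0.00845). The lower one, the isomerase Eci1 (-0.64 ± 0.20), lost its call without any 1 of the 8 arrays (adjusted p = 0.053 to 0.135).

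Of 24 tested genes of uptake and intracellular lipid handling, 4 were lower and 2 higher at the EOM junction (median -0.34), and 5 were lower and none higher at the TA junction (median -0.50). At the EOM junction the droplet protein Plin4 and the acyl-CoA synthetase Acsl6 were lower, at -1.73 ± 0.22 and -1.51 ± 0.30, while another synthetase, Acsl4, was higher, at 1.28 ± 0.24 (adjusted p = 0.000232, 0.00651 and 0.00457, limma). Plin4 was also lower at the TA junction, at -0.95 (adjusted p = 0.013, limma), a call lost without TA_fiber 29 or TA_synapse 15. Plin5, which coats lipid droplets and ties them to mitochondria, was lower at the TA junction, at -2.01 ± 0.32 (adjusted p = 0.00105). Dgat2, which makes triglyceride, was lower at both junctions, at -1.73 ± 0.27 in EOM and -1.44 ± 0.27 in TA (adjusted p = 0.00114 and 0.00351).

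Between the muscles, 5 of these 24 genes were higher and 3 lower in EOM_synapse than in TA_synapse (median 0.00), and 2 higher and 3 lower in EOM_fiber than in TA_fiber (median -0.02). The fatty acid transporter Slc27a1 was higher in EOM in both regions, by 1.32 ± 0.22 at the junction and 1.05 ± 0.22 in the fibre (adjusted p = 0.000964 and 0.0049, limma). At the junction the synthetase Acsl3 was higher by 1.60 ± 0.22 and the droplet protein Plin3 by 1.43 ± 0.25, while Plin4 was lower, at -1.50 ± 0.22 (adjusted p = 0.000223, 0.0016 and 0.000405). In the fibre Plin3 was higher too, by 1.02 ± 0.25, and Plin4 lower, at -0.73 ± 0.22 (adjusted p = 0.0141 and 0.038, limma). The Plin3 fibre call was lost without EOM_fiber 29, and the Plin4 fibre call without any 1 of 6 of its 8 arrays.

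In the carnitine shuttle list, 1 of 6 tested genes passed the threshold in each comparison of 2 groups. It was Cpt2, which returns acylcarnitines to acyl-CoA inside the mitochondrion, at both junctions, with -1.07 ± 0.24 in EOM and -1.05 ± 0.24 in TA (adjusted p = 0.0124 and 0.0132, limma, lower in both). These calls were lost without EOM_synapse 29 (adjusted p = 0.0568) and without TA_fiber 27 or TA_synapse 25 (0.0546 to 0.0566). Between the muscles it was Mlycd, which breaks down the Cpt1 inhibitor malonyl-CoA, lower in EOM_synapse than in TA_synapse at -0.89 ± 0.21, and the carnitine transporter Slc22a5, lower in EOM_fiber than in TA_fiber at -0.71 ± 0.19 (adjusted p = 0.0107 and 0.0244). The Slc22a5 call was lost without 1 of EOM_fiber 15, EOM_fiber 29, TA_fiber 15 or TA_fiber 29 (adjusted p = 0.068 to 0.0881).

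Of the pyruvate dehydrogenase genes beside Pdk4, 2 of 11 were lower at each junction, with medians of -0.34 in EOM and -0.48 in TA. The kinase Pdk2 was lower at the EOM junction, at -1.08 ± 0.24 (adjusted p = 0.0111, limma). Between the muscles no gene of this list passed the threshold in limma, with 5 at the junction and 3 in the fibre at an unadjusted p under 0.05.

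Among 27 tested receptors, coregulators and energy sensors, 2 were lower and 1 higher at the EOM junction (median -0.12), and 6 were lower and 3 higher at the TA junction (median -0.05). Ppargc1b, the close relative of Ppargc1a, and Perm1, a muscle regulator of the same pathway, were lower at the TA junction, at -1.19 ± 0.24 and -1.10 ± 0.21 (adjusted p = 0.00629 and 0.00457, limma). Ppargc1b was also lower at the EOM junction, at -0.88 (adjusted p = 0.0366, limma). That call was lost without any 1 of its 8 arrays but EOM_fiber 29. Prkaa1, a catalytic subunit of the energy sensor AMPK, was higher at both junctions, by 2.10 ± 0.17 in EOM and 1.30 ± 0.17 in TA, and the uncoupling protein Ucp2 was higher at the TA junction by 1.58 ± 0.30 (adjusted p = 4.39e-06, 0.00018 and 0.00387). Lpin1, a phosphatidate phosphatase that also acts as a coactivator, was lower at the EOM junction, at -1.53 ± 0.21 (adjusted p = 0.000521). Esrra, the receptor through which PGC-1 alpha acts on many of its targets, named here after its values were seen, had -0.71 ± 0.24 in EOM and -0.76 ± 0.24 in TA (adjusted p = 0.0829 and 0.0651).

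Between the muscles, 5 of these 27 genes were higher and 2 lower in EOM_synapse than in TA_synapse (median 0.03), and 2 higher and 4 lower in EOM_fiber than in TA_fiber (median -0.01). The catalytic subunits of AMPK differed in opposite directions at the junction: Prkaa1 was higher in EOM, at 1.19 ± 0.17, and Prkaa2 lower, at -1.04 ± 0.18 (adjusted p = 0.000304 and 0.0017, limma). Prkaa2 was also lower in EOM_fiber than in TA_fiber, at -0.83 ± 0.18, and so was the retinoid X receptor Rxrg, at -0.97 ± 0.23 (adjusted p = 0.0078 and 0.0108). The estrogen-related receptor Esrrg was higher in EOM_synapse by 1.02 ± 0.20 (adjusted p = 0.00314). It was also higher in EOM_fiber than in TA_fiber, by 0.80 (adjusted p = 0.0143, limma), a call lost without EOM_fiber 29 or TA_fiber 25. Ppara, Rxra and Sirt1 were not tested here.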

How the data were processed

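Total RNA from the laser-captured regions was amplified over repeated rounds, labelled with biotin and hybridised to Affymetrix rat arrays, per the labels' protocols. The deposited table holds one linear intensity per probe set and array. The sources used here do not name the software that summarised the probes. The equal trimmed means show that the authors had scaled the arrays to one another. Strong amplification can shorten transcripts, so probe sets far from the 3′ end may read low.

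Intensities were quantile-normalized after adding 16 and taking log2, a step added here to values deposited on the linear scale. Control probe sets (57) were left out. Genes were named from the platform annotation, which gave 1 gene to 20826 probe sets, several to 436 and listed no entry for 9780, and each gene was represented by its probe set with the highest mean. Tests used limma 3.58.1 in R 4.3.3 (lmFit, eBayes) over all 16 arrays with rat as a fixed term, leaving 9 residual degrees of freedom, two-sided, with Benjamini-Hochberg adjustment over 10416 genes. Intervals are 95% intervals of the fit.

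The rat pairs the samples because every rat gave all 4. Deviations from the group means correlated by 0.112 on average over 24 pairs of arrays from the same rat (-0.0666 to 0.245). Pairs of arrays that differed in both rat and group averaged -0.0374, and 14 of 16 arrays were closest to an array of their own rat. Deviations cancel out within a group by construction, which pulls correlations between different rats down. The comparison with other rats is therefore no independent check of the pairing.

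The members and all gene lists were chosen with earlier results of these data known. Named were all members, up to 4 called genes per pathway list and comparison with the smallest adjusted p, up to 3 per marker list, and the 5 genes most correlated with Ppargc1a and with Pdk4. Alternatives changed the block, the arrays fitted, the normalization, the pseudocount, the filter, the probe set and the arrays kept. Group means are given ± SD. Array batches are named in none of the sources used here.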

Additional observations from a re-analysis of the deposited data

Results flagged for a closer look

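By Dixon's test at the 95% level, 2 member values stood far from the other 3 rats of their group, among 36 groups of 4 values examined. Chance alone marks about 1 in 20 such groups. Ppargc1a was 9.09 in TA_synapse of rat 27, above 8.10 to 8.14 in the other TA_synapse arrays, with a gap of 0.959 of the group's range. TA_synapse 27 is also among the 3 arrays of highest median intensity. Without it, Ppargc1a stayed past the threshold in both comparisons that use TA_synapse. Hadh was 9.32 in TA_synapse of rat 29, below 9.74 to 9.81 in the other 3, with a gap of 0.85 of the range, and the call of lower Hadh at the TA junction was lost without that array, as given above.

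The difference between junction and fibre differed between the muscles past the threshold for 3 of the 148 member, pathway and marker genes tested for it in limma. Over all tested genes 0.922% passed, and none of the 3 is a member. Acsl3, an acyl-CoA synthetase, had an interaction of 1.60 (adjusted p = 0.0262), with 0.96 ± 0.22 at the EOM junction and -0.64 ± 0.22 at the TA junction. That call was lost without any 1 of 8 of the 16 arrays (EOM_synapse 15, EOM_synapse 27, EOM_synapse 29, EOM_fiber 25, TA_synapse 27, TA_synapse 29, TA_fiber 25 and TA_fiber 27, adjusted p = 0.0517 to 0.0706). The fibroblast collagen Col1a1 had -1.60 (adjusted p = 0.00528) and the acetylcholine receptor subunit Chrna1 -2.89 (adjusted p = 0.00698). The junction differed from the fibre in Col1a1 by 0.06 ± 0.17 in EOM and 1.66 ± 0.17 in TA, and in Chrna1 by 3.85 ± 0.32 in EOM and 6.75 ± 0.32 in TA. All 4 rats had the sign of the interaction for each of the 3 genes.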

How the results depend on the processing

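Over the 9 members and 5 comparisons, 927 alternative values stayed on the same side of the threshold with the same direction, 136 lost a call, 11 gained one and 48 values without a call changed sign. The 927 include values without a call that stayed without one, so they do not measure how often a call was kept. The one called value that turned was Pdk4 in EOM_fiber against TA_fiber, at 0.30 with its other probe set. Of 23 alternatives, those with a single other probe set left aside, higher Ppargc1a, Lpl and Slc25a20 in EOM_synapse, lower Lpl in TA_synapse and lower Hadh in EOM_fiber were called in all 23. Lower Cd36 at both junctions, lower Cpt1b at the EOM junction and lower Pdk4 in EOM_synapse than in TA_synapse were called in 6. Lower Pdk4 in EOM_fiber than in TA_fiber was called in 4. The cause of the changes below was not tested. The count of members past the threshold in EOM_fiber against TA_fiber (3) was 1 when only the arrays compared were fitted, 1 without the 3 arrays of highest median and 5 with a pseudocount of 64. In EOM_synapse against EOM_fiber (5) it was 3 with the rat as a random block, only the arrays compared, values as deposited, no filter, or without the 3 arrays, and 1 with median centring. In the interaction (0) it was 1 with a pseudocount of 64. Without the replicate block the counts were 3 in EOM_synapse against TA_synapse, 2 in EOM_fiber against TA_fiber, 2 at the EOM junction, 4 at the TA junction and 0 in the interaction. Leaving out 1 array or 1 rat gave 3 to 4, 1 to 3, 1 to 4, 3 to 6 and 0 in the same order. Over all genes the counts moved by over 1.5 times with only the arrays compared (582 against 1620 in the fibres, 606 against 1066 at the TA junction), with median centring (1139 against 1712 between the junctions, 689 against 1055 at the EOM junction, 56 against 96 in the interaction), and with a pseudocount of 1 or 64 (46 and 218 against 96). With 1 array left out they moved that far without EOM_synapse 25 (1136 between the junctions), EOM_synapse 15 (634) and EOM_synapse 29 (648, both at the EOM junction), and without 6 arrays in the interaction (56 to 63). With 1 rat left out, the lowest counts were 903 between the junctions, 924 in the fibres, 475 at the EOM junction, 586 at the TA junction and 25 in the interaction. Over the 5 pathway lists, the totals of 21, 12, 14 and 25 ranged over 12 to 24, 0 to 16, 5 to 22 and 8 to 32, the 0 coming from only the arrays compared. As deposited, the median of all genes in EOM_fiber against TA_fiber was 0.108. Dim probe sets limit what can be read: of the 14 member probe sets, the 3 above the median on 1, 3 and 7 arrays passed the threshold in no comparison.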
